A study of Drosophila melanogaster with 3 samples.

Results

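The 9 head patterning genes examined here are *oc*, *ems*, *btd*, *cnc*, *croc*, *fkh*, *so*, *Optix* and *toy*, taken from the 13945 protein-coding genes annotated on the major chromosome arms of *Drosophila melanogaster*. They were listed by name as regulators of the head, with earlier results of these data known. Their ChIP-seq peak summits were collected from a transgenic line stably expressing the homeodomain protein Zen with GFP at its C terminus, immunoprecipitated with an antibody against GFP. Whole embryos aged 0 to 4 h of pooled sex gave 3 biological replicates that form 1 group, and the labels give no other treatment. Peaks were listed for each library (30000 summits each), for the pooled libraries (30000) and for the IDR set, the pooled summits kept by the irreproducible discovery rate. The IDR set held 24.7% of the pooled list and was its strongest part by the authors' signal value, with 0 exceptions. Rank means the place of a summit in its list by that value, 1 being the strongest, and the top of a library means as many of its strongest summits as the IDR set holds. Sequencing depth is unknown because the lists carry no read counts. Controls from flies lacking the GFP fusion were not analysed here, so binding by Zen and recovery of open chromatin regardless of the tag cannot be told apart.

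The fly head is laid out in the blastoderm by broad, overlapping bands of transcription factors at the anterior end, the head gap genes, which act without the regular pair-rule stripes of the trunk. Genes for the labrum, the foregut and the visual system then divide this field further. Zen is a homeodomain protein made on the dorsal side of the early embryo and is best known for specifying the amnioserosa, the extraembryonic membrane of the fly.

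A summit of the IDR set was present at every one of the 9 genes within the territory, defined as the gene body and 5 kb on either side. In the same kind of territory, 60.7% of all protein-coding genes had a summit, and 69.9% of those whose territory was at least as long as the shortest of the 9 (12.3 kb). In the tops of the libraries, 9, 9 and 8 of the genes were marked in replicates 1, 2 and 3 (8.67 ± 0.577, SD, n = 3). The corresponding shares of all protein-coding genes were 58.9%, 58.6% and 62.9%. *Optix* was the gene without such a summit in replicate 3.

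The territories held 26 IDR summits (0.351% of the set) and 100 summits of the pooled list, where 82.1% of protein-coding genes also had a summit. IDR summits were denser there than around genes in general, at 1.24 per 10 kb against 0.754 per 10 kb summed over all protein-coding territories. The tops of the libraries gave 1.29, 1.29 and 0.955 per 10 kb at the 9 genes (1.18 ± 0.193, SD, n = 3). Density was above the value for all protein-coding territories at 7 of the 9 genes and below it at *so* and *toy*. The share of all protein-coding genes above that value was not counted. The median density was 1.5 per 10 kb over the 9 genes and 0.724 per 10 kb over all protein-coding territories. The excess depended on the reach of the territory. With 2 kb on either side in place of 5 kb, 6 of the 9 genes kept a summit (46.8% of all protein-coding genes had one) and the density fell to 0.837 against 0.740 per 10 kb. *btd*, *so* and *Optix* had summits only farther out.

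**Figure D1:**
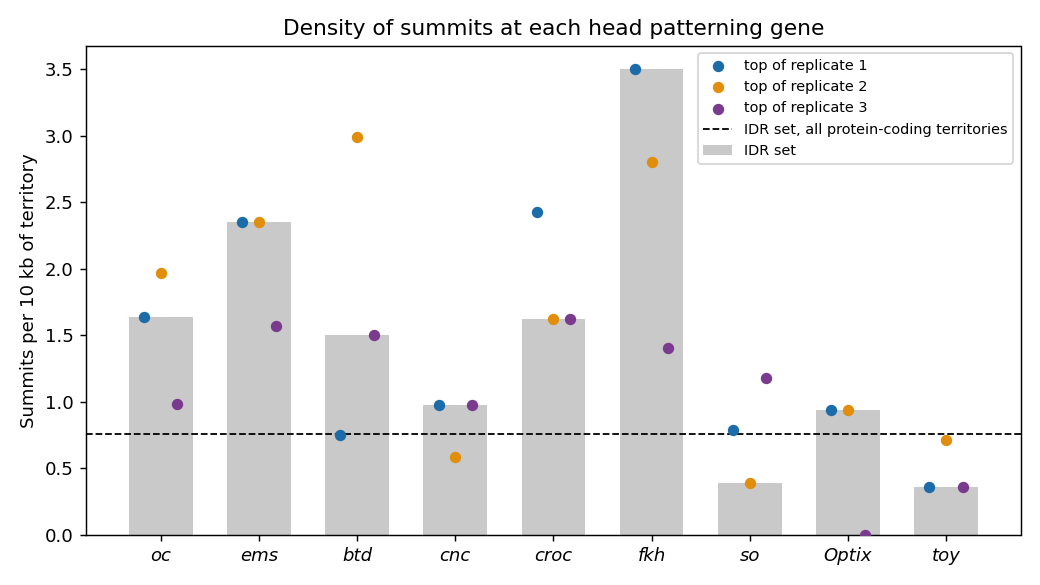
Summits per 10 kb of territory (gene body and 5 kb on either side) at each gene, with bars for the IDR set, points for the top of each replicate and a dashed line for all protein-coding territories in the IDR set (0.754 per 10 kb). The bar of *fkh* is highest, at 3.50 per 10 kb, and those of *so* (0.392) and *toy* (0.355) lie under the line.

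The IDR summits lay mostly away from the start sites of the genes. Of the 26, 16 were upstream of the gene's 5' end, 6 were within the gene body and 4 were beyond its 3' end. By annotation 15 were intergenic, 6 were in introns of *oc* or *cnc*, and 5 were in exons of long noncoding RNA genes. None fell in coding sequence or an annotated UTR. The median distance to the gene's own nearest start was 2801 bp. Within 500 bp of any annotated start lay 30.8% of the 26, against 46.8% of all IDR summits.

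**Figure D2:**
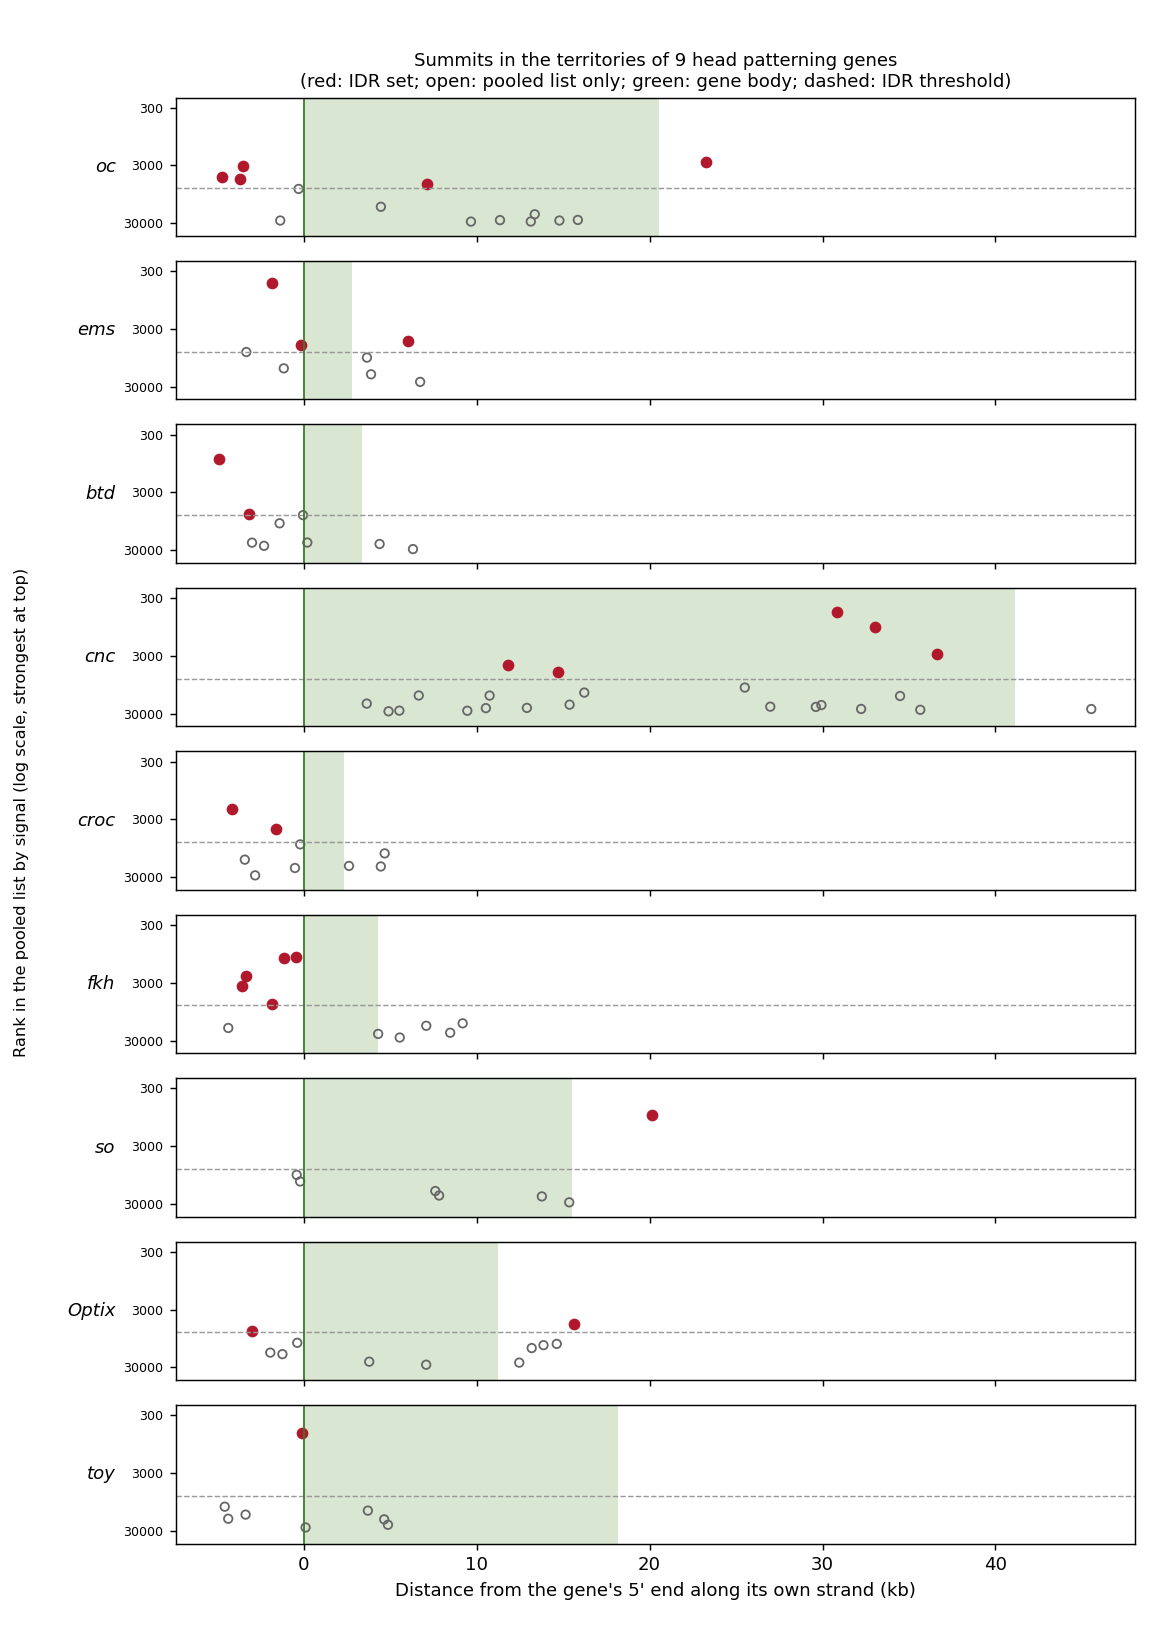
Every pooled-list summit in the territory of each gene, by distance from the gene's 5' end along its own strand (kb, x axis) and by rank in the pooled list (log scale, strongest at the top). Red points belong to the IDR set, open points to the pooled list only, green shading is the gene body and the dashed line is the size of the IDR set. *oc* and *fkh* carry groups of red points upstream of the 5' end, *cnc* carries them inside the gene, and *so* has its red point 4646 bp beyond the 3' end.

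The strongest summits of *ems*, *cnc*, *toy*, *btd* and *fkh* are shown as sequence because they led the pooled list among the 9 genes, apart from that of *so* (rank 866), whose window is not printed here. Each line gives up to 100 bases on either side of the summit, from the reference genome of the dm6 build, 5' to 3' on the plus strand. Capitals mark matches on either strand to any of 8 short motifs that are spelled out with their counts farther on. The *toy* window stops before the annotated 5' UTR.
*ems*, chr3R:13899910-13900110, plus strand: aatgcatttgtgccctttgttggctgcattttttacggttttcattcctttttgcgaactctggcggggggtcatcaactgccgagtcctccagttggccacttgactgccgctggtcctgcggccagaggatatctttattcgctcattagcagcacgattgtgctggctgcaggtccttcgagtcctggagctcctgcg
*cnc*, chr3R:23195782-23195982, plus strand: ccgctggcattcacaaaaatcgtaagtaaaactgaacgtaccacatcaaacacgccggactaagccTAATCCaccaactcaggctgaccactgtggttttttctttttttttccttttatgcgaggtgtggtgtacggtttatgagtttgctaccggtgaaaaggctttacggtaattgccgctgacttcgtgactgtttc
*toy*, chr4:989530-989724, plus strand: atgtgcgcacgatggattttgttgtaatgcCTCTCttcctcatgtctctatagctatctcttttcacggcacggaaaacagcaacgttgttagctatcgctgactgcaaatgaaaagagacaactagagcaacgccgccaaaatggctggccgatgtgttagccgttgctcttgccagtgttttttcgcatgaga
*btd*, chrX:9689194-9689394, plus strand: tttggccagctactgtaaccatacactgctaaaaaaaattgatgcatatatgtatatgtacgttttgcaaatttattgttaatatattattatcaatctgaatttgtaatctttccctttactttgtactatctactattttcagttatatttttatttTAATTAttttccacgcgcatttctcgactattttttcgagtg
*fkh*, chr3R:28585587-28585787, plus strand: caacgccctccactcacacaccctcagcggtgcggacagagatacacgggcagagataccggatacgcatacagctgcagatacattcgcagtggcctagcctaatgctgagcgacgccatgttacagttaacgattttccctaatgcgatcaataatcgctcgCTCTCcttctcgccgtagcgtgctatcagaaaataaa
The *ems* window held none of the 8 motifs. In *cnc* the capitals mark TAATCC, the site of homeodomains with lysine at the position that reads the last bases, such as Bicoid and Oc. Its first base lies 34 bases before the summit. In *btd* they mark the homeodomain core TAATTA, which begins 59 bases after the summit. In *toy* and *fkh* they mark a match to GAGAG on the minus strand, a site of the GAGA factor, which begins 70 bases before the summit in *toy* and 64 bases after it in *fkh*. A further GAGAG match of *toy* reaches into the part that is not printed.

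Among the head gap genes, *ems* had the summit that ranked strongest of all 9 genes in the pooled list and in replicate 2. In replicate 1 the best *cnc* summit (rank 385) was ahead of it, and in replicate 3 the best of *btd* (577) and *cnc* (891) were. *ems* (FBgn0000576, 3R, 13901853 to 13904620, plus strand) encodes a homeodomain protein needed for antennal and intercalary head segments. Its leading summit lay 1843 bp upstream of the start, in an intergenic interval from 13899834 to 13900229. It ranked 480 in the pooled list and 408, 332 and 1111 in replicates 1, 2 and 3. It was thus among the strongest few percent of summits in every library. A weaker summit sat 149 bp upstream of the start (pooled rank 5632), and another lay 3248 bp beyond the 3' end (rank 4878). Both were matched in all 3 libraries.

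*oc* (FBgn0004102, X, 8630159 to 8650681, minus strand), also known as orthodenticle, encodes a homeodomain protein of the anterior head and brain and is a target of Bicoid. It had 5 IDR summits. Those upstream of the 5' end were grouped: 3495, 3697 and 4742 bp away, with pooled ranks of 3007, 5086 and 4798. The summits at 3495 and 3697 bp were listed in the same interval, from 8653998 to 8654515. The libraries divided this pair differently. The farther summit ranked 11447, 3791 and 1520 in replicates 1, 2 and 3, whereas the nearer ranked 2017 and 2673 in replicates 1 and 2 and had no counterpart within 100 bp in replicate 3. The strongest *oc* summit of the pooled list was beyond the 3' end, 2739 bp from the gene and 15756 bp from its nearest start (rank 2633). It ranked 3924, 3620 and 1944 in the libraries, where in each an upstream summit ranked higher. A further summit lay in an intron, 347 bp upstream of an internal start (rank 6394). The next IDR summit outside the territory was 5171 bp beyond the 3' end, just past the limit of 5 kb.

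*btd* (FBgn0000233, X, 9694186 to 9697558, plus strand) encodes a zinc-finger protein of the Sp family that acts as a head gap gene. Its leading summit was 4892 bp upstream of the start, near the edge of the territory, in an exon of the noncoding RNA gene *lncRNA:CR42657*, whose start was the nearest at 1105 bp. It ranked 801 in the pooled list and 954, 1320 and 577 in the libraries. A second IDR summit, 3187 bp upstream (rank 6981), ranked 14449 and 5096 in replicates 1 and 2 and had no counterpart in replicate 3. The summit at the *btd* start itself, 42 bp upstream, ranked 7439 in the pooled list, just outside the IDR set.

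The bZIP gene *cnc* (FBgn0262975, 3R, 23185580 to 23226711, minus strand), a relative of mammalian Nrf2 that also patterns the labral and mandibular segments, held its 5 IDR summits entirely within the gene. With 10 annotated starts over 41132 bp it was the longest of the 9. The strongest, 2602 bp upstream of the nearest internal start (interval 23195598 to 23196108), ranked 530 in the pooled list and 385, 485 and 891 in the libraries. The next, 375 bp upstream of an internal start, had pooled rank 942 and ranked 1000, 455 and 2348. Others lay 351 bp inside a transcript (rank 2760) and 367 bp upstream of another start (rank 4294). Thus 3 of the 5 were within 500 bp of an internal start. The weakest, at rank 5755, had no counterpart within 100 bp in replicate 2.

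The forkhead-domain genes *fkh* and *croc* had 3.50 and 1.62 IDR summits per 10 kb, an order kept in replicates 1 and 2. The tops gave 3.50, 2.80 and 1.40 per 10 kb at *fkh* and 2.43, 1.62 and 1.62 at *croc*. In replicate 3 each gene had 2 summits, and *croc* was the denser only through its shorter territory (12.3 against 14.3 kb). *fkh* (FBgn0000659, 3R, 28580976 to 28585264, minus strand), the gene that gave the domain its name, acts in the foregut, hindgut and salivary glands. It had 5 IDR summits in a territory of 14.3 kb, the highest density of the 9 in the IDR set. At least 5 IDR summits were found in 3.26% of all protein-coding territories. All 5 were upstream, at 423, 1160, 1853, 3344 and 3555 bp from the nearest *fkh* start. The last 4 lay in an exon of *lncRNA:CR43126*, which runs on the opposite strand, and all 5 were closer to its start than to that of *fkh*. The leading summit ranked 1077 in the pooled list and 830, 1012 and 1637 in the libraries, and the next ranked 1118, with 1013, 546 and 2202.

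Replicate 3 ranked the *fkh* summits lowest. The summits at 1853, 3344 and 3555 bp ranked 11242, 7616 and 10523 there. In replicate 1 they ranked 5998, 1599 and 3556. In replicate 2 the outer ones ranked 5569 and 1053, and the summit at 3344 bp had no counterpart within 100 bp. The number of *fkh* summits in the tops of the libraries was 5, 4 and 2 (3.67 ± 1.53, SD, n = 3). *croc* (FBgn0014143, 3L, 21474133 to 21476479, minus strand) encodes a forkhead-domain protein of the clypeolabrum and the anterior head. It had 2 IDR summits, 4171 and 1619 bp upstream. The first, from 21480513 to 21480774, ranked 2006 in the pooled list and 1324, 2762 and 2811 in the libraries. The second ranked 4396, with 3973, 5934 and 5090. Both *croc* summits were in the top of every library.

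The eye genes had fewer IDR summits. *so*, *Optix* and *toy* together had 4 in 75.0 kb, or 0.534 per 10 kb, against 1.76 for the head gap genes and 1.54 for *cnc*, *croc* and *fkh*. In the libraries the eye genes gave 0.622 ± 0.077, the head gap genes 1.71 ± 0.539 and the other 3 genes 1.33 ± 0.297 per 10 kb (SD, n = 3). The eye genes had the lowest value in each library. No test was run, since the genes were grouped with their summits known.

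*toy* (FBgn0019650, 4, 989725 to 1007922, plus strand) encodes a Pax6 protein that acts upstream of *ey* in eye development. Its IDR summit was at the promoter, 95 bp upstream of the start (interval 989514 to 989775), and was strong. It ranked 609 in the pooled list and 570, 394 and 1296 in the libraries. The remaining 7 pooled-list summits of *toy* ranked 11412 or weaker.

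*so* (FBgn0003460, 2R, 7419350 to 7434872, plus strand) encodes a Sine oculis-family homeodomain protein of the visual system. Its IDR summit was the farthest from the gene's own start, at 20168 bp, and lay 4646 bp beyond the 3' end in an intergenic interval from 7439338 to 7439708. It ranked 866 in the pooled list and 683, 545 and 2385 in the libraries. The nearest annotated start was that of *CG11123*, 1188 bp away, so the assignment to *so* rests on the territory rule. *Optix* (FBgn0025360, 2R, 8031283 to 8042529, plus strand), another gene of that family, active in the eye and anterior brain, had the weakest leading summit of the 9 genes. One lay 4362 bp beyond the 3' end (rank 5328; 4253, 5629 and 9598 in the libraries). The other was 3000 bp upstream (rank 7004; 9740, 4809 and 9624).

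At the start sites, the IDR set and the pooled list gave different pictures. In the IDR set 5 of the 9 genes (*oc*, *ems*, *cnc*, *fkh* and *toy*) had a summit within 500 bp of an own start, and 29.3% of all protein-coding genes did. In the pooled list all 9 did, against 53.8%. The strongest start-site summits of the other 4 genes were 42 bp upstream for *btd* (rank 7439), 202 bp upstream for *croc* (8155), 406 bp upstream for *so* (9394) and 373 bp upstream for *Optix* (11230). All 4 were outside the IDR set. Of the 5, *oc* and *cnc* (3 and 10 annotated starts) counted only through internal starts. The count of 5 was also taken among summits shared by the tops of 2 libraries. These sets were smaller than the IDR set, at 4782, 5107 and 5304 summits without replicates 1, 2 and 3. They gave 3, 3 and 5 of the 9 genes with a summit at a start site. The share of all protein-coding genes at start sites was not counted in them, and the part of set size was not tested.

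The strongest summit per gene had a median rank of 866, against 2538 over all protein-coding genes with a summit in the territory. A longer territory can hold more summits and so a stronger best one, and the territories of the 9 genes were longer (median 21.2 kb against 12.2 kb). Of the 26 summits, 14 were in the strongest 3702 of the IDR set. That cut divides all IDR summits into nearly equal parts, so the count was near the share of the whole set.

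Most of the IDR summits were found in the full list of every library. The IDR set was derived from calls in these same libraries, so a high matched share follows in part from how the set was made. A counterpart within 100 bp was listed in all 3 libraries for 22 of the 26 (84.6%), against 88.3% of all IDR summits. By library, 26, 24 and 24 of the 26 were matched in replicates 1, 2 and 3. The 4 incomplete ones belonged to *oc*, *btd*, *cnc* and *fkh*. When only the tops of the libraries counted, 53.8% of the 26 were matched in all 3. All 26 had a counterpart within 250 bp in every library, and 13 had one within 50 bp in all 3 libraries. The shares of all IDR summits under these other settings were not counted, so these values have no background beside them.

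Replicate 3 was often the library in which a summit ranked lowest. Its median interval width was 360 bp, against 430 bp in replicates 1 and 2. Of the 22 summits matched throughout, 14 (63.6%) ranked lowest in replicate 3, against 35.0% of all IDR summits matched in every library. 4 ranked highest there: the *cnc* summit at rank 2760, the *btd* summit at rank 801, and the *oc* summits at ranks 2633 and 5086. The part of depth in these differences was not tested, since the lists carry no read counts.

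**Figure D3:**
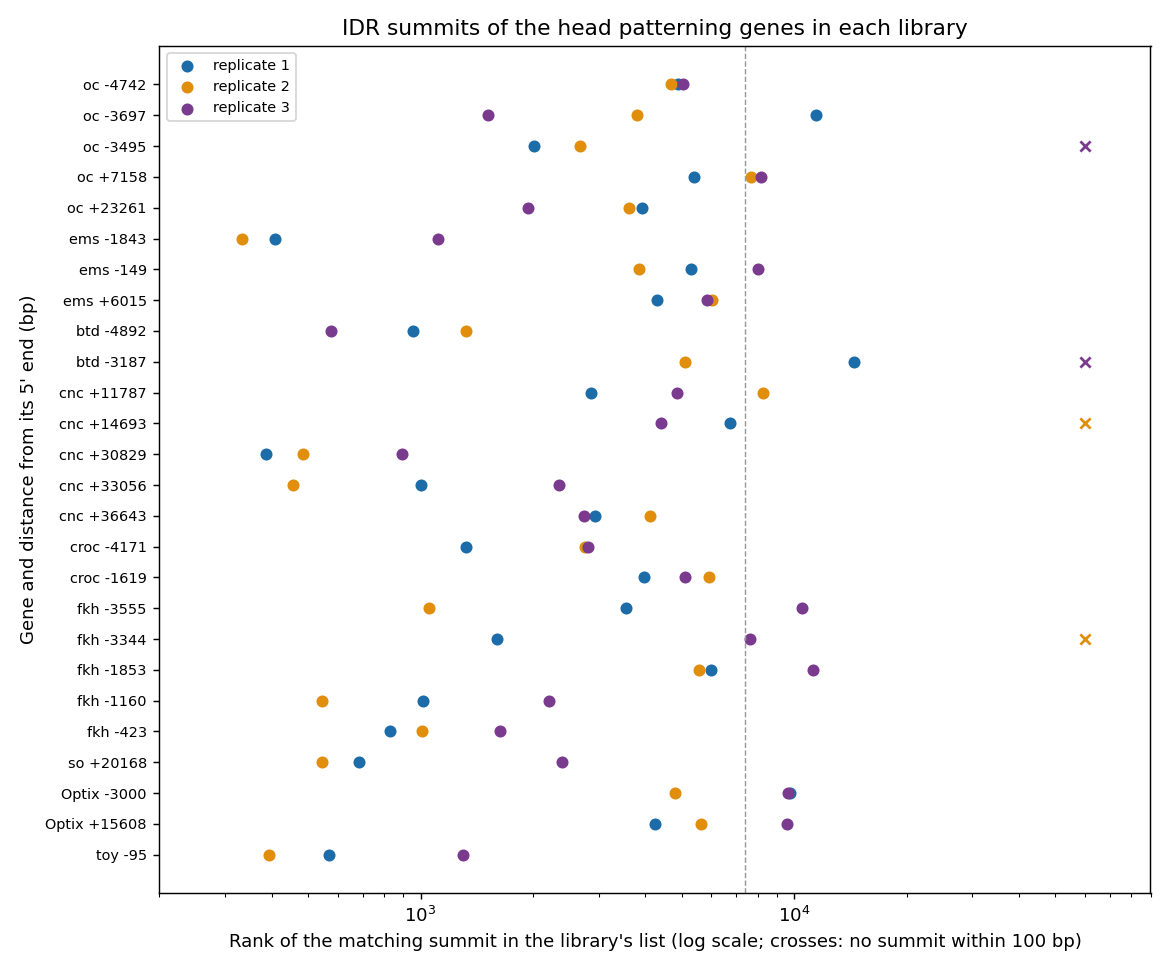
Rank of the matching summit in each library (log scale, x axis) for the 26 IDR summits, named by gene and distance from its 5' end in bp (y axis). Crosses mark summits with no counterpart within 100 bp and the dashed line is the size of the IDR set. Purple points for replicate 3 lie to the right of the others for 14 of the 22 complete summits, and 4 summits have a cross.

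Motifs were counted within 100 bp of the summits on either strand, and none of those searched contains another. TAATTA, the homeodomain core, occurred at 4 of the 26 summits (15.4%), at both *btd* summits and at 1 summit each of *fkh* and *Optix*. All IDR summits held it at 18.6%, and windows 1000 bp away on either side held it at 19.2% (10 of 52) for the 9 genes and 11.7% for all. The core was thus not more frequent at the summits of these genes than beside them. The Zelda core CAGGTA, the site of the main early zygotic activator, was found at 2 of the 26 (7.69%), in *cnc* and *so*, against 10.2% of all IDR summits.

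TAATCC was present at 4 of the 26 (15.4%) against 7.14% of all IDR summits. Windows beside the summits held it at 3.85% (2 of 52) for the 9 genes and 7.13% for all. Among the 100 pooled-list summits of the 9 genes the share was 9.0%. The 4 IDR summits with TAATCC were 1 each of *oc*, *cnc*, *so* and *Optix*. The library tops in these territories gave 14.8%, 18.5% and 15.0% (16.1 ± 2.09, SD, n = 3). Within 50 bp the share was 7.69%, against 3.74% of all. GAGAG was present at 9 of 26 (34.6%) against 23.8% of all and 30.8% beside the summits. The DREF site TATCGATA was found at 2 (7.69%, in *oc* and *cnc*) against 5.23% of all IDR summits, and the forkhead site GTAAACA at 1 (3.85%, in *fkh*) against 6.27%. The Sine oculis site TGATAC was at 2 (7.69%, in *oc* and *ems*) against 5.36%, and the GC box GGGCGG at 1 (3.85%, in *ems*) against 4.79%. TAAATT, which has the bases of TAATTA in another order, was at 4 (15.4%) against 33.3% of all. TAATTA reads the same on both strands and TAAATT does not. A window could therefore match TAAATT in more ways, and the shares of TAATTA and TAAATT are not directly comparable. CGAGTA, with the bases of CAGGTA reordered, was at 2 (7.69%) against 4.66%. None of the 8 motifs was present at 6 of the 26 windows (23.1%, against 40.5% of all IDR windows). The median GC content of the windows was 46.5%, against 38.3% for all IDR windows, and the part of base composition in the motif shares was not tested.

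**Figure D4:**
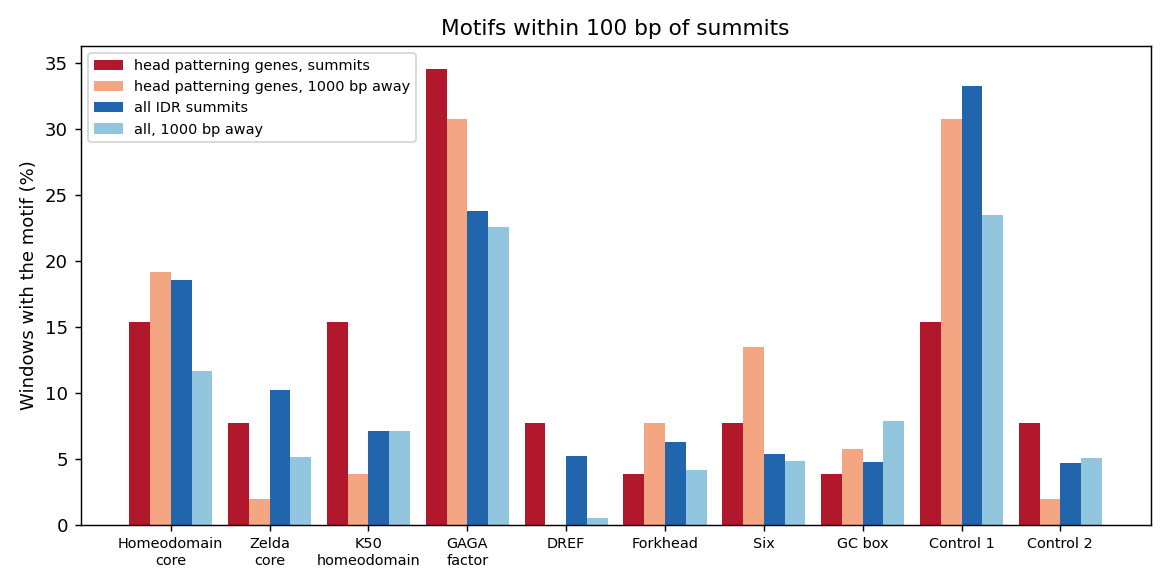
Share of windows with each motif (%, y axis) within 100 bp of the 26 summits (dark red), in windows 1000 bp away from them (light red), at all IDR summits (dark blue) and 1000 bp away from those (light blue). The controls are TAAATT and CGAGTA. For the K50 homeodomain motif (TAATCC) the dark red bar is at 15.4% and the dark blue bar at 7.14%, from 4 of 26 summits.

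Other genes of head and eye development carried IDR summits as well. Of 28 such genes, which include Hox, gap and retinal genes, 26 had a summit in the territory, against 60.7% of all protein-coding genes. Their territories ran from 11.4 to 44.4 kb, against a median of 12.2 kb over all protein-coding genes. A longer territory can hold more summits, and the share among genes with territories of like length was not counted for this list. The 28 territories held 99 summits in 644.6 kb (1.54 per 10 kb, against 0.754 summed over all protein-coding territories). In the library tops 26, 28 and 24 were marked, against 58.9%, 58.6% and 62.9% of all protein-coding genes. The strongest were those of *bcd*, the maternal anterior determinant, at rank 1 and 3695 bp upstream, and of the forkhead-domain genes *slp2* at rank 133 (4315 bp upstream) and *slp1* at rank 173 (2214 bp downstream of the start). *bcd* lies beside *zen* in the Antennapedia complex. The homeobox genes *scro* and *Dll* had no IDR summit. *scro* had no summit in the pooled list either, in a territory of 43.9 kb, nor in the lists of replicates 1 and 3, but replicate 2 listed 2 there, the stronger at rank 3450. *Dll* had 12 in the pooled list, the strongest at rank 7680, and its best ranks in the libraries were 5959, 6790 and 11049. *ey*, the partner of *toy* on chromosome 4, had 2 IDR summits, the stronger at rank 1952 (2008, 2787 and 1664 in the libraries).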

How the data were processed

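The authors called dm6 peaks in each of 3 libraries and in all of them pooled, using 1 set of control alignments, and derived the IDR set from these calls, per the deposited notes. Caller and aligner: not given in the sources used here. Chromatin was sonicated to 200 to 800 bp, per the labels. The signal value per peak is a score from the authors' caller, here serving to order the peaks of 1 list, and the deposited −log10 q-value was not used. Summit positions were taken from the deposited lists.

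Python 3.11.15 with numpy 2.4.6 and pandas 2.3.3 was used. Genes and starts came from Ensembl release 115 on dm6, without transposable elements, and sequence from the RefSeq copy of the same build. A territory was the gene body and 5 kb on either side; a match was a summit within 100 bp. Distances were to the nearest annotated start of the gene. Rule for names: every member with its IDR summits, the gene with the nearest start to a member's strongest summit, and, of 28 other head and eye genes, those without an IDR summit and the 3 strongest; *ey* was named after its values were seen. Sequences on 1 arm were not printed. Consensus sets without a replicate held the top summits of 1 remaining library matched among those of the other. No test was run: the design has 1 group, and values stand beside those of all genes or all summits. Counting steps were tested on simulated data. Members and lists were chosen with earlier results of these data known.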

Additional observations from a re-analysis of the deposited data

How the results depend on the processing

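Of 62 alternative values, 34 stayed within 1.5 times (counts) or within 1 SD of the libraries (shares and densities), and 28 went past that. With territories of 2 kb the members' IDR summits numbered 13 (0.837 per 10 kb), and with 10 kb 45 (1.503 per 10 kb, 160 pooled summits). The strongest 3702 summits of the IDR set gave 14 summits (0.669 per 10 kb), and the strongest 14810 pooled peaks gave 46 (2.20 per 10 kb), of which 76.1% were matched in all libraries. Over all protein-coding territories the density was 0.740 per 10 kb with 2 kb and 0.744 with 10 kb. It was 0.371 with the strongest 3702 summits and 1.42 with the 14810 pooled peaks. Leaving out a replicate gave 16 to 20 summits shared by the others (16 without replicate 1 or without replicate 2, where *Optix* had none), 3 to 5 genes with a start-site summit, and 84.6% to 92.3% of IDR summits matched in the libraries that remained. The shared sets were smaller than the IDR set (4782 to 5304 summits), and 50.2% to 52.1% of all protein-coding genes had a summit in them. The matched share was 50% within 50 bp, 100% within 250 bp and 53.8% in the tops of the libraries, settings for which all IDR summits were not counted. Counting the gene's 5' end alone put 11.5% of summits within 500 bp. The CAGGTA share was 0 within 50 bp (4.93% of all IDR summits), 26.9% within 200 bp (17.6% of all) and 5.0% in the pooled list. The TAATCC share was 7.69%, 19.2% (12.7% of all) and 9.0% under the same settings. With the pooled list or its strongest 14810 peaks, 9 genes had a start-site summit. Alternatives for TAATCC and start-site counts were chosen after seeing the data. The number of members with a summit, 6 to 9, and of the other head and eye genes, 19 to 27, stayed within 1.5 times. The share of all protein-coding genes moved with the settings as well. It was 46.8% with territories of 2 kb (6 members, 25 others) and 73.2% with 10 kb (9 and 27). With the strongest 3702 IDR summits it was 40.3% (8 and 19), and with the 14810 pooled peaks 74.8% (9 and 27). No paired analysis was possible because there is 1 group. Depth is unknown, so weak summits cannot be given a counting error.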

Other observations

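Among the matched IDR summits of the head patterning genes, library summits had a median offset of 5.5, 17 and 15.5 bp in replicates 1, 2 and 3. A match already required a distance of at most 100 bp, so larger offsets could not enter these medians. Of the 100 pooled-list summits in these territories, 38 had a counterpart within 100 bp in all 3 libraries and 4 had none in any library. The base composition of the windows varied widely among the genes: GC content ran from 18.4% at the *btd* summit 3187 bp upstream to 64.7% at the *so* summit.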
